A study of Homo sapiens with 30 samples.

Results

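The widest called peaks of trimethylated histone H3 lysine 27 (H3K27me3) in HEK293T cells treated with a control antisense oligonucleotide are described here. They were chosen by width alone, as the peaks on chromosomes 1 to 22 of the control H3K27me3 list that spanned at least 3000 bp. This gave 1485 broad peaks among 73667 peaks on these chromosomes, or 2.02%, in a list that held 102921 peaks in all. HEK293T is an established line from human embryonic kidney with the large T antigen of SV40. All cells received an antisense oligonucleotide (ASO), a short synthetic strand that lowers the amount of its target RNA, and chromatin was taken 48 h later. H3K27me3 was profiled after a negative control ASO (NC), after an ASO against the long noncoding RNA LINC00641 and after an ASO against the long noncoding RNA SETD5-AS1. Trimethylated histone H3 lysine 9 (H3K9me3) was profiled after NC and after ASOs against the long noncoding RNA LINC00662, with an NC group of its own. Each of these 5 ChIP groups had 3 replicates and an input group of 3 replicates, which gave 30 samples in 10 groups. The authors merged the replicates before calling peaks, so 5 pooled lists were compared, no value has an error between replicates and no difference between groups was tested. Both H3K27me3 knockdown lists were set against the same NC list.

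H3K27me3 is written by Polycomb repressive complex 2 (PRC2), whose catalytic subunit is EZH2 or EZH1, and is read by chromodomain proteins of Polycomb repressive complex 1. It marks developmental and lineage-specific genes that a cell does not use, and PRC2 can bind the mark it has made, so that the mark spreads from CpG-rich start sites into broad domains. H3K9me3 is written by other enzymes, among them SUV39H1 and SETDB1, and is known for silent repeats and zinc finger gene clusters. How far each ASO lowered its RNA was not analysed here.

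Broad peaks spanned a median of 3812 bp, with quartiles of 3319 and 4751 bp, and 1 in 10 reached 6081 bp. Together they held 6.40 Mb, or 11.4% of the base pairs under autosomal NC peaks. The fold enrichment at the summit, the authors' ratio of ChIP to input fragments, had a median of 4.66 in broad peaks and 3.3 over all NC peaks. The median −log10 q was 9.26 against 3.72, and the median summit held 30 fragments against 17. These values come from the list that defined the broad peaks and are given as a description. The local input at the summit had a median of 1.47 times the genome-wide level in broad peaks and 1.07 times over all NC peaks. Broad peaks were also richer in GC, with a median of 47.1% against 45.2%, and their observed over expected ratio of CpG dinucleotides was 0.23 against 0.192.

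The sequence under the summits showed how different the broad peaks were from one another. Windows of 300 bases centred on the summit are shown on the plus strand of GRCh37, whose coordinates are those of hg19, in lower case with each CG dinucleotide in capitals. The first 4 are from the 4 widest broad peaks, and the other 2 are from the widest broad peaks at the promoters of a basic helix-loop-helix (bHLH) gene and a neurotransmitter receptor gene.
LPA intron, chr6:161040294-161040593: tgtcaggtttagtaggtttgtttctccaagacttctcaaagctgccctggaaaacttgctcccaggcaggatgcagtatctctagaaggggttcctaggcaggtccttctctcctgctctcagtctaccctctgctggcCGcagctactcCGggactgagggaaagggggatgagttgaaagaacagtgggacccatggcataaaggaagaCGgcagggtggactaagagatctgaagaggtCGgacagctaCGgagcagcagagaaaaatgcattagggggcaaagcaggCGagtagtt
RBFOX3 intron, chr17:77315584-77315883: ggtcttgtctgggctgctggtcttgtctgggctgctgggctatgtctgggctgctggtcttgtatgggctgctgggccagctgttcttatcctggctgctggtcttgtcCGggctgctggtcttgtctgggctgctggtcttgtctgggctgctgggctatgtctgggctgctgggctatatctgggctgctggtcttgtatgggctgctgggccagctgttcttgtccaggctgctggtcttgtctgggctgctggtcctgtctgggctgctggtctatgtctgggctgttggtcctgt
Intergenic, nearest start AJAP1, chr1:4420521-4420820: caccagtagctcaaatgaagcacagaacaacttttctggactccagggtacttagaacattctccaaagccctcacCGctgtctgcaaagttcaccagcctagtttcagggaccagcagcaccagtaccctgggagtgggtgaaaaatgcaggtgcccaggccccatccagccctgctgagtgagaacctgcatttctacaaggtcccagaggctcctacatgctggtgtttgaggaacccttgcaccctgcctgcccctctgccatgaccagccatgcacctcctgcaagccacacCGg
Intergenic, nearest start TCERG1L, chr10:133236637-133236936: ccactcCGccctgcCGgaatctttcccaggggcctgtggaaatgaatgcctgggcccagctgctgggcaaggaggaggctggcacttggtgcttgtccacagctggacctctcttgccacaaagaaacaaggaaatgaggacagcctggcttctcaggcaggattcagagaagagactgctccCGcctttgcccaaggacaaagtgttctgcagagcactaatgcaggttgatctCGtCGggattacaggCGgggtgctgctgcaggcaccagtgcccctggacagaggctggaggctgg
NEUROG3 promoter peak, chr10:71332315-71332614: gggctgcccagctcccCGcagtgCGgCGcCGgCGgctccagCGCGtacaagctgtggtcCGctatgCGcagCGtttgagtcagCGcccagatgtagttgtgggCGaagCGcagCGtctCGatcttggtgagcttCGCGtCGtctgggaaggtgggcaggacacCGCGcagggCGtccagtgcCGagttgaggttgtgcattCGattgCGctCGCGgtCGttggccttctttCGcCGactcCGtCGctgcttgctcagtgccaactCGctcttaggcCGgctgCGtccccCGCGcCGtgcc
CHRM2 promoter peak, chr7:136555245-136555544: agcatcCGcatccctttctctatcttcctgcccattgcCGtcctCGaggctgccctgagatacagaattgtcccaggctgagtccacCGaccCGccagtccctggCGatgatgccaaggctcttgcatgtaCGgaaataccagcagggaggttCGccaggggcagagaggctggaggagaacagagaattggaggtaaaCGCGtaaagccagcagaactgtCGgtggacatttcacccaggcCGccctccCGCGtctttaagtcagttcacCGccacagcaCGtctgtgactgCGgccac

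The windows of the widest peaks held 6, 1, 2 and 6 CG dinucleotides in the order shown. Over all broad peaks the median was 5, with quartiles of 3 and 8. The window in RBFOX3 was a run of near-identical short repeats with 1 CG. At promoters the count was 17 at CHRM2 and 37 at NEUROG3, which was the highest of the 1485 windows. Over all NC peaks the median window held 3 CG.

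Broad peaks lay mostly away from promoters of protein-coding genes. The summit was in an intron of a protein-coding gene for 506 peaks (34.1%), in an exon for 68 (4.58%), in another gene such as a long noncoding RNA or pseudogene for 250 (16.8%) and between genes for 661 (44.5%). Over all NC peaks the intronic share was 30.7%, the exonic share 2.25%, the share in another gene 22.4% and the intergenic share 44.6%. A promoter, here 1 kb either side of a start of a protein-coding transcript, was touched by 177 broad peaks, or 11.9% (95% Wilson interval 10.4 to 13.7, counting error only), where 3.22% of all NC peaks touched one. A wider peak touches more of any feature by its length. Broad peaks at promoters had a median GC content of 51.8% and a median −log10 q of 14.3, against 46.7% and 8.78 for the other broad peaks.

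Many broad peaks lay near another on the genome. Joined over gaps of up to 50 kb they formed 701 groups, of which 449 held a single broad peak. The 55 groups of 5 or more held 537 broad peaks (36.2%), and 69.8% of broad peaks had another in their group. Other NC peaks were not grouped in this way, so whether such grouping is particular to broad peaks was not tested. The largest group lay mostly upstream of AJAP1, which encodes a transmembrane protein of adherens junctions, on chromosome 1 (chr1:3997851-4747106), with 44 broad peaks and 246 kb under them. The next groups by summed width were a stretch at chr1:5470473-5861288 with 24 broad peaks, the locus of the neurotrophin-3 receptor gene NTRK3 on chromosome 15 with 24, and a pair of groups on chromosome 10 that began at 133119220 and 132123992 and held 20 each. Chromosomes 5, 1, 8 and 7 held 199, 195, 179 and 112 broad peaks, together 46.1%, and chromosome 13 held 1. These 4 chromosomes held 37.3% of all NC peaks and chromosome 13 held 0.425%. On chromosome 5 the share of NC peaks that were broad, 1.75%, was below the 2.02% over all chromosomes. The median local input of the broad peaks was 1.38, 1.59, 1.49 and 1.70 times the genome-wide level on those 4 chromosomes, and its part in the counts was not tested. Broad peaks were frequent near chromosome ends, with 24.0% within 5 Mb of an end and 47.2% within 10 Mb, where 12.3% and 29.8% of all NC peaks and 7.64% and 15.3% of the sequence lay.

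Some long genes held many broad peaks. In total 255 of 18893 protein-coding genes (1.35%) were overlapped by at least 1 broad peak, 28 by at least 5 and 10 by at least 10. The genes with a broad peak had a median length of 118 kb and those with at least 5 a median of 471 kb, against 27.4 kb over all protein-coding genes. The genes named next were ranked by their number of broad peaks after these numbers had been seen. DPP6, which encodes an auxiliary subunit of neuronal Kv4 potassium channels, held 53 broad peaks with 229 kb among 463 NC peaks. RBFOX1, a neuronal splicing regulator, held 28, and its relative RBFOX3, known as the neuronal marker NeuN, held 10. The acid-sensing ion channel gene ASIC2 held 21, NTRK3 and the cell adhesion gene KIRREL3 held 16 each, and TMEM132B held 15. The teneurin gene TENM2 and the M-current potassium channel gene KCNQ3 held 13 each, and CSMD2 held 12. As a share of the NC peaks in the gene, broad peaks made up 11.4% in DPP6, 22.2% in RBFOX3 and 10.5% in NTRK3, but 2.94% in RBFOX1 and 2.49% in TENM2, close to the 2.02% over all NC peaks.

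DPP6 (chr7:153445218-154685995, plus strand) was marked along most of its length. NC peaks of any width covered 52.0% of the gene body, LINC00641 peaks 44.4% and SETD5-AS1 peaks 46.1%. Of the base pairs in its broad peaks, 82.8% were covered by LINC00641 peaks and 82.4% by SETD5-AS1 peaks. H3K9me3 NC peaks covered 10.1% of the gene body and 13.6% of its broad peaks, and LINC00662 peaks 8.94% and 16.6%. The stretch from 825 to 925 kb into the gene, empty in all 5 lists, is a run of N in the GRCh37 sequence.

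**Figure D1:**
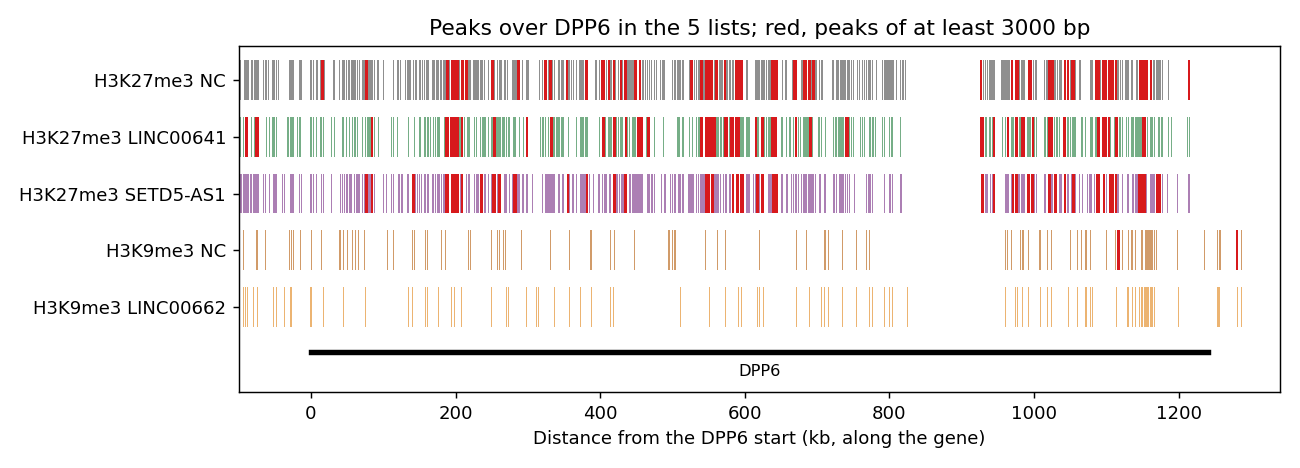
Peaks over DPP6 and 100 kb either side, by distance from the gene start in kb, with 1 row for each of the 5 pooled lists and peaks of at least 3000 bp in red. The 53 broad NC peaks are matched by broad, shorter or split peaks in both H3K27me3 knockdown lists, which cover 82.8% and 82.4% of their base pairs, and H3K9me3 peaks are sparser, at 10.1% of the gene body in NC against 52.0% for H3K27me3 NC.

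The other genes rich in broad peaks differed in how much of them was covered. In RBFOX1, LINC00641 peaks covered 82.7% and SETD5-AS1 peaks 75.2% of the broad peak base pairs. The values were 72.0% and 79.7% in ASIC2, 78.5% and 81.4% in NTRK3, and 90.2% and 86.9% in RBFOX3. Over the 28 genes with at least 5 broad peaks, the share covered by LINC00641 peaks ran from 53.3% in SORCS3, a sorting receptor gene, to 98.1% in TTC34, with a median of 77.1%. The share covered by SETD5-AS1 peaks ran from 61.0% in CA10 to 95.8% in TTC34, with a median of 76.8%. H3K9me3 NC peaks covered between 0 and 19.8% of the broad peaks in these genes, with a median of 3.81%.

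Nearly every broad NC peak had an H3K27me3 partner in each knockdown. At least 1 bp was overlapped by a LINC00641 peak in 1483 broad peaks (99.9%), where 51.6% of all NC peaks were, and by a SETD5-AS1 peak in 1484 (99.9%), where 55% were. The covered share, the percentage of base pairs of a broad peak that lie under peaks of the other list, had a median of 81.2% in LINC00641, with quartiles of 66.6% and 91.6%, and of 79.6% in SETD5-AS1, with quartiles of 65.4% and 89.6%. At least 50% was covered in 1350 broad peaks in LINC00641 and in an equal number, not all the same peaks, in SETD5-AS1, each 90.9% (89.3 to 92.3). Over all NC peaks these shares were 37.9% and 40.1%. Over base pairs, 78.3% and 77.0% of the broad peaks were covered, against 47.0% and 48.2% for all NC peaks. Coverage of at least 50% was reached in both knockdowns by 1270 broad peaks (85.5%) and in neither by 55 (3.70%), where the shares of all NC peaks were 24.0% and 46.0%. When NC peaks within 1 kb of each other were first merged, 6209 regions reached 3000 bp, and their median covered shares were 49.97% in LINC00641 and 51.1% in SETD5-AS1.

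Across the whole NC list, wider peaks were covered more. Under 500 bp, 26.4% of NC peaks were covered at least 50% in LINC00641 and 29.7% in SETD5-AS1. From 3000 to 4000 bp these shares were 88.7% and 88.2%, and from 7500 bp they were 100% and 98.6% of 70 peaks. The width cut itself marked no step, since the 70 peaks within 50 bp above it had median covered shares of 78.9% and 73.4% and the 87 peaks within 50 bp below it 78.6% and 77.0%. Width and peak strength go together, so broad and narrower NC peaks were also set side by side at like −log10 q. Between a −log10 q of 5 and 8, 86.2% of 442 broad peaks and 53.5% of 14179 narrower ones were covered at least 50% in LINC00641. From a −log10 q of 20 the shares were 98.3% of 117 and 95% of 218.

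**Figure D2:**
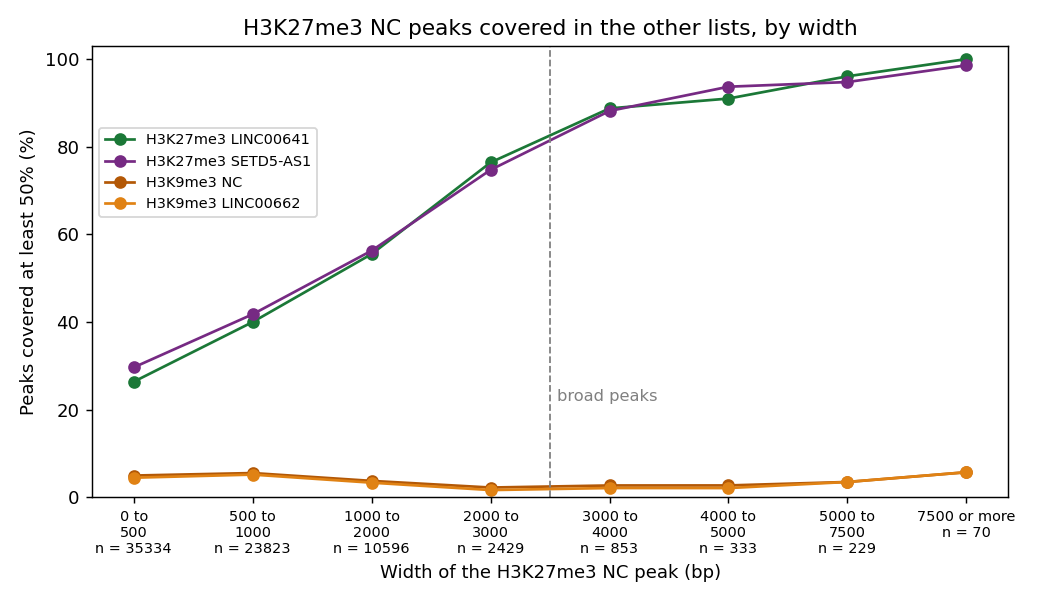
Share of H3K27me3 NC peaks on chromosomes 1 to 22 of which at least 50% of the base pairs lay under peaks of another list, by width of the NC peak in bp, with the number of NC peaks in each class. Both H3K27me3 knockdown lists run from 26.4% and 29.7% to 100% and 98.6%, while both H3K9me3 lists stay under 6% in every class.

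Broad NC peaks were often not covered by a single broad peak. A LINC00641 peak of at least 3000 bp overlapped 715 broad peaks (48.1%, with 2.99% over all NC peaks), and a SETD5-AS1 peak of that width overlapped 598 (40.3%, with 2.52% over all NC peaks). Such a partner was present in both knockdowns for 430 broad peaks (29.0%) and in neither for 602 (40.5%), where the shares of all NC peaks were 1.18% and 95.7%. A broad peak met 1 LINC00641 peak in 518 cases, 2 in 591, 3 in 278 and 4 or more in 96. For SETD5-AS1 these counts were 447, 616, 316 and 105. Over all NC peaks, 45.8% met 1 LINC00641 peak, 5.06% met 2, 0.661% met 3 and 0.133% met 4 or more. The shares for SETD5-AS1 were 48.3%, 5.76%, 0.762% and 0.148%. A wider peak can meet more partners by its length. Of the base pairs left uncovered, 57.5% in LINC00641 and 58.5% in SETD5-AS1 lay in gaps between partner peaks, with a median gap of 432 and 427 bp, and nearly all the rest lay at the edges. Coverage was lowest in the outermost parts of the broad peaks when each was cut into 10 equal parts, at 69.1% and 67.3% in LINC00641 and 68.8% and 67.7% in SETD5-AS1, and highest in part 5, at 84.0% and 82.3%.

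**Figure D3:**
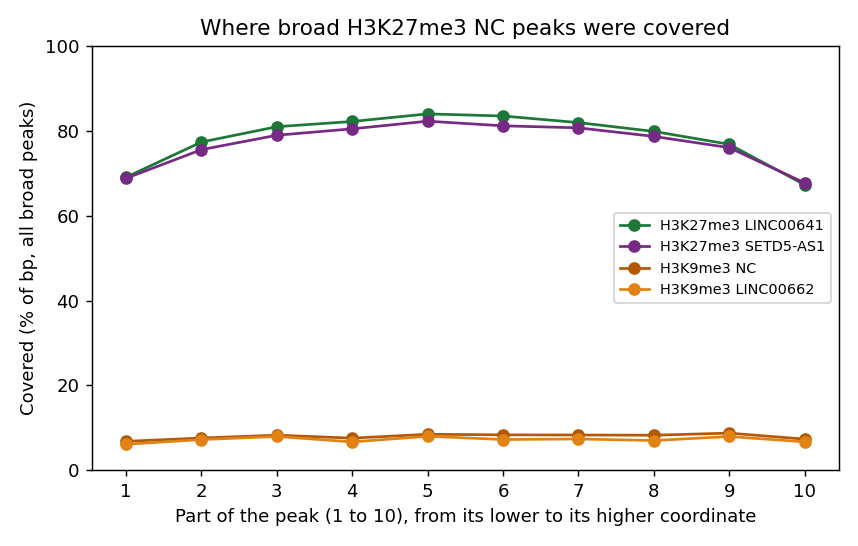
Share of base pairs covered in each of 10 equal parts of the 1485 broad NC peaks, from the lower to the higher coordinate, in the 4 other lists. Coverage in the H3K27me3 knockdown lists is 84.0% and 82.3% in part 5 and 67.3% to 69.1% at the edges, and H3K9me3 coverage is between 6.12% and 8.75% in every part.

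Peaks selected as wide in one list tend to be narrower in any other, so the comparison was made in the other direction as well. The LINC00641 list held 1195 broad peaks, and NC peaks covered a median of 87.1% of each. The SETD5-AS1 list held 1025, also with a median of 87.1% under NC peaks. A broad NC peak overlapped 59.1% and 58.9% of them. Set against each other, broad LINC00641 peaks had a median of 83.7% under SETD5-AS1 peaks and broad SETD5-AS1 peaks 87.6% under LINC00641 peaks. Broad NC peaks had the lowest medians of these comparisons, 81.2% in LINC00641 and 79.6% in SETD5-AS1, and what this difference reflects was not tested. The NC list had more autosomal peaks (73667) than the LINC00641 (58801) and SETD5-AS1 (68848) lists, and the genome-wide input level was 3.85, 3.78 and 4.43 fragments.

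Fold enrichment at the strongest partner had a median of 4.91 in LINC00641 and 4.35 in SETD5-AS1, beside 4.66 at the NC summits. The median log2 ratio of a knockdown partner to its broad NC peak was 0.07 for LINC00641 (quartiles −0.20 and 0.36) and −0.11 for SETD5-AS1 (quartiles −0.35 and 0.17). These ratios depend on the depth of each pooled list.

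Within the broad peaks, the covered share followed GC content. In the 297 broad peaks with the lowest GC content, 32.2% to 43.6%, the median covered share was 64.4% in LINC00641 and 66.0% in SETD5-AS1. In the 297 with the highest, 51.6% to 71.4%, it was 92.0% and 87.3%. Between these sets the median −log10 q also differed, 8.10 against 11.7, as did the share with a protein-coding promoter, 4.04% against 30.3%, and their parts in the difference were not tested. Between chromosomes with at least 10 broad peaks, the median covered share ran from 69.7% on chromosome 5 to 87.1% on chromosome 19 in LINC00641 and from 69.5% on chromosome 20 to 86.3% on chromosome 10 in SETD5-AS1.

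**Figure D4:**
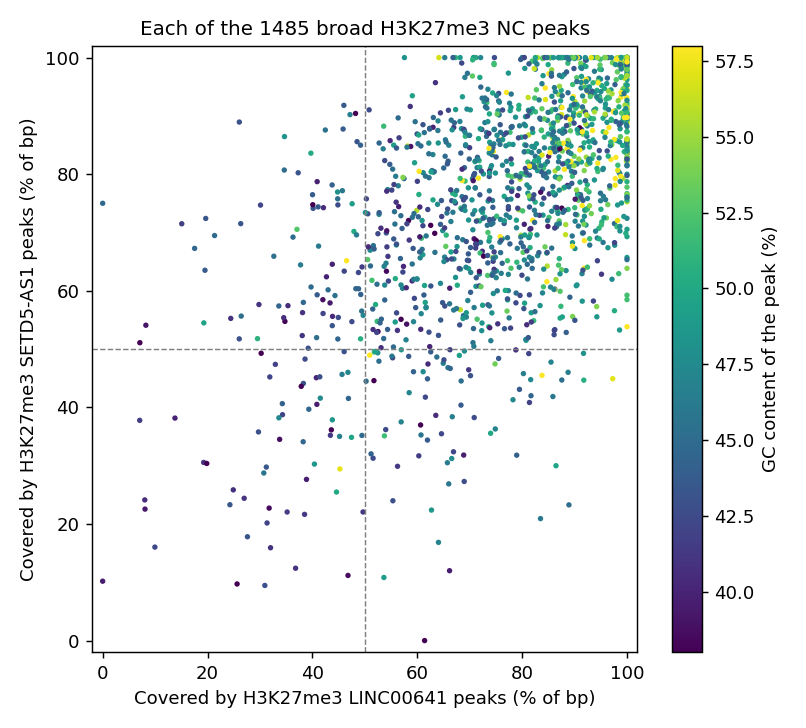
Covered share of each of the 1485 broad NC peaks, in % of base pairs, in the LINC00641 list (x axis) and the SETD5-AS1 list (y axis), coloured by GC content, with dashed lines at 50%. Most points, 1270, lie above 50% on both axes and 55 lie below 50% on both, where darker points of low GC content are common.

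The 5 widest broad peaks were covered 93.9% to 99.7% in LINC00641 and 85.4% to 96.5% in SETD5-AS1. The widest of all spanned 18552 bp in an intron of LPA, which encodes apolipoprotein(a), at chr6:161033611-161052162. LINC00641 peaks covered 96.3% of it and SETD5-AS1 peaks 96.5%. The input at its summit reached 6.39 times that of the genome as a whole, and LPA is known for its near-identical kringle repeats. The next was an intronic peak of 15009 bp in RBFOX3 (chr17:77315432-77330440), covered 98.3% by a single LINC00641 peak and 92.6% by 3 SETD5-AS1 peaks, with an input of 3.3 times the genome-wide level. A peak of 12628 bp between genes, 293998 bp from the AJAP1 start (chr1:4410517-4423144), was covered 99.7% by a single LINC00641 peak and 95.3% by a single SETD5-AS1 peak, with a fold enrichment of 4.65 in NC, 6.59 in LINC00641 and 3.27 in SETD5-AS1. A peak of 12098 bp near TCERG1L on chromosome 10 (chr10:133233429-133245526) was covered 97.8% in LINC00641 and 90.9% in SETD5-AS1. A peak of 11689 bp in an intron of DPP6 (chr7:154031328-154043016) was covered 93.9% and 85.4%, by 3 peaks in each.

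The strongest broad peaks lay where the input was high. By −log10 q, 3 of the first 5 were in introns of TTC34 on chromosome 1 and the other 2 lay between genes on chromosome 8, with inputs of 22.5 and 27.6 times the genome-wide level. The first, at chr1:2583571-2588472, had a −log10 q of 343 in NC, 454 in LINC00641 and 299 in SETD5-AS1. At the second, chr1:2626379-2630746, local input reached 47.7 times the genome-wide level, the highest value recovered for a broad peak, and the fold enrichment was 4.57, 5.47 and 4.16. In all, 26 broad peaks (1.75%) had an input over 5 times the genome-wide level, against 0.368% of all NC peaks. The 5 most covered broad peaks, each at 100% in both knockdowns, included a TTC34 peak with an input of 11.4 times the genome-wide level. They also included an intronic peak of 5778 bp in KCNQ3 and a peak of 4951 bp in the noncoding gene HPYR1 upstream of it, with inputs of 1.42 and 1.28 times.

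The least covered broad peaks were weak. The lowest mean over both knockdowns belonged to an intergenic peak of 3102 bp at chr6:63583642-63586743, with 16 fragments at its summit, no LINC00641 peak and 1 SETD5-AS1 peak of 316 bp. A peak of 3293 bp in the long noncoding gene PCAT19 (chr19:41965577-41968869) also had 16 fragments, and 9.96% of it was covered in LINC00641. The other 3 of the least covered were at chr5:7936103-7939432, chr6:58578739-58582298 and chr18:36080252-36083824, with 22, 18 and 23 fragments and 8.08%, 8.03% and 25.6% covered in LINC00641. In SETD5-AS1 the 5 peaks were covered 9.71% to 24.1%. The GC content of these 5 peaks was 37.2% to 42.4%.

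The covered share was higher in LINC00641 for 798 broad peaks, higher in SETD5-AS1 for 658 and equal for 29, and the median difference, SETD5-AS1 minus LINC00641, was −0.894 percentage points. Over all NC peaks the median covered share lay in the other direction, at 14.4% in LINC00641 and 27.7% in SETD5-AS1. In 202 broad peaks (13.6%) the shares differed by over 25 points, as they did in 38.9% of all NC peaks. At ASTN1, a neuronal adhesion gene (chr1:177079657-177083001), a broad peak of 3345 bp with 23 fragments had no LINC00641 peak and a SETD5-AS1 peak of 2509 bp with 25 fragments. An intronic peak in NTRK3 was covered 15.1% in LINC00641 and 71.5% by 2 SETD5-AS1 peaks, the wider of which spanned 4156 bp. In the other direction, a peak of 3057 bp in an intron of the serotonin receptor gene HTR4 (chr5:148009741-148012797) was covered 61.4% in LINC00641 and had no SETD5-AS1 peak, and a peak in CA10 was covered 66.2% in LINC00641 and met 1 SETD5-AS1 peak of 528 bp. The NC summits of these 4 peaks held 22 to 29 fragments, and differences between pooled lists have no replicate check.

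H3K9me3 reached into many broad H3K27me3 peaks but covered little of them. An H3K9me3 NC peak overlapped 535 broad peaks by at least 1 bp, or 36.0% (33.6 to 38.5), where 9.93% of all NC peaks were overlapped, and a LINC00662 peak overlapped 545, or 36.7% (34.3 to 39.2), where 9.61% were. Over base pairs, where width does not raise the value by itself, 7.97% and 7.22% of the broad peaks lay under H3K9me3 NC and LINC00662 peaks, where 5.79% and 5.42% of the base pairs of all H3K27me3 NC peaks did. At least 50% was covered in 44 broad peaks (2.96%, with 4.84% over all NC peaks) by H3K9me3 NC and in 37 (2.49%, with 4.4% over all NC peaks) by LINC00662. Both H3K9me3 lists overlapped 337 broad peaks (22.7%), NC alone 198, LINC00662 alone 208 and neither 742. This split was not made over all NC peaks. With H3K9me3 peaks of a −log10 q of at least 5 only, 11.6% of the broad peaks were overlapped in NC and 10.6% in LINC00662, with 3.64% and 3.18% of the base pairs covered. The broad peaks with and without H3K9me3 NC had median covered shares of 81.0% and 81.3% in LINC00641 and of 80.3% and 79.2% in SETD5-AS1.

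Where H3K9me3 covered at least 50%, the input was high. The 44 such broad peaks had a median input of 3.3 times the genome-wide level, 18 of them exceeded 5 times, and 26 were also covered at least 50% by LINC00662. The widest broad peak, in LPA, was covered 87.4% by H3K9me3 NC and 71.5% by LINC00662, and chromosome 6, which holds it, had 37.4% of its broad peak base pairs under H3K9me3 NC. Among the 5 broad peaks with the largest share under H3K9me3 NC, 4 had an input of 15.4 to 28.7 times the genome-wide level, at chr11:93966794-93972727, at chr15:102298822-102302189 and at a pair of sites on chromosome 8 whose nearest protein-coding start was that of REXO1L1. The fifth, at chr5:178478752-178483177 and 4371 bp from the start of the zinc finger gene ZNF354C, had an input of 1.07 times, and LINC00641 peaks covered 19.3% of it.

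Broad peaks at promoters belonged to 168 protein-coding genes (0.889%), where 1562 (8.27%) had an NC peak of any width there. Of the 168, 167 had a LINC00641 peak and 168 a SETD5-AS1 peak at the promoter, and 27 an H3K9me3 NC peak. Of the 1562 genes, 84.3% had a LINC00641 and 80.2% a SETD5-AS1 peak there, and 1285 of all 18893 genes (6.80%) had an H3K9me3 NC peak. The median covered shares of the 168 were 87.2% and 85.3%. The counts below are set beside that 0.889%, and no list was tested. At that share a small list can easily hold none, so a lack of broad peaks in one says little. The lists together had 35 genes with a broad promoter peak, which became 68 with a minimum width of 2000 bp and 11 with 5000 bp.

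Among the lists, neurotransmitter receptor and potassium channel genes had the largest numbers of broad promoter peaks. Of 93 neurotransmitter receptor genes 9 had one (9.68%) and 45 had an NC peak of any width. Of 92 potassium channel genes 7 had one (7.61%) and 39 any. By share, the PAX list stood above both at 11.1%, 1 of 9 genes, and the bHLH list lay between them at 9.52%. The receptors included the muscarinic acetylcholine receptor gene CHRM2, with a peak of 5847 bp covered 79.8% and 80.1% in LINC00641 and SETD5-AS1. The glutamate receptor gene GRIA2 had the highest fold enrichment of the broad peaks, 11.4, with 76 fragments, and was covered 79.8% and 68.2%. The metabotropic glutamate receptor gene GRM5 was covered 80.6% and 88.3%. Among potassium channel genes, KCNIP1, which encodes a Kv4 channel partner, was covered 67.3% and 75%, the calcium-activated channel gene KCNN2 77.5% and 55.4%, KCNQ3 89.3% and 83.5%, and KCNK10, a leak channel gene, 94.8% and 98.0%.

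Among the transcription factor lists, broad promoter peaks were found in the bHLH, homeobox, SOX and PAX lists. Of 42 neural and mesodermal bHLH genes 4 had a broad promoter peak and 15 any. They included NEUROG3, which drives pancreatic endocrine fate, with 9810 bp covered 87.5% and 90.2%, NEUROD1 with 7753 bp covered 100% and 86.0% and NEUROD2 with 3659 bp covered 94.4% and 81.9%. The NEUROD1 peak also reached a start of CERKL, so these genes cannot be told apart by the peak. Of 120 homeobox genes outside the HOX clusters 5 had one and 20 any. LHX5, a forebrain regulator, was covered 92.5% and 94.1%, BSX 83.7% and 87.6%, ONECUT3 100% and 98.0%, and POU4F2, a regulator of retinal ganglion cells, 71.4% and 55.1%. SOX11 was the 1 of 18 SOX genes, covered 87.1% and 95.1%, and PAX4 the 1 of 9 PAX genes, covered 47.5% and 34.9% with 21 fragments. None of 42 forkhead genes and none of 21 T-box and GATA genes had one, with 5 and 1 having an NC peak of any width.

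None of 39 HOX genes had a broad peak or any other NC peak at a promoter. Neither H3K27me3 knockdown list had a peak at a HOX promoter, and H3K9me3 NC had 1. The lists hold narrow peaks called against a local input, so a lower or more even H3K27me3 signal over the HOX clusters was not analysed here. Of 67 WNT, FGF, BMP and hedgehog ligand genes 4 had a broad promoter peak and 18 any. These were FGF3, covered 97.9% and 82.9%, the hedgehog gene SHH with 80 fragments, covered 99.6% and 91.9%, FGF10, covered 91.5% and 69.9%, and WNT7A, covered 96.9% and 82.5%. Of 86 protocadherin and cadherin genes 2 had one, CDH8 and CDH11, each covered over 87% in both knockdowns, while 51 (59.3%, with 6.80% over all genes) had an H3K9me3 NC peak.

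In the remaining lists broad promoter peaks were few or missing, beside 0.889% of all protein-coding genes. Olfactory receptor genes had NC peaks of any width at 104 of 380 genes but broad ones at 2 (0.526%). These were OR10H1 and OR1N2, the second covered 51.5% and 56.9%. Zinc finger genes had no broad peak at 496 genes and an NC peak of any width at 14, while 240 (48.4%, with 6.80% over all genes) had an H3K9me3 NC peak. Of 7 CDK inhibitor genes none had a broad peak and 1 any. The 78 ribosomal protein genes and the 12 genes of PRC2 subunits had no H3K27me3 NC peak at a promoter.

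**Figure D5:**
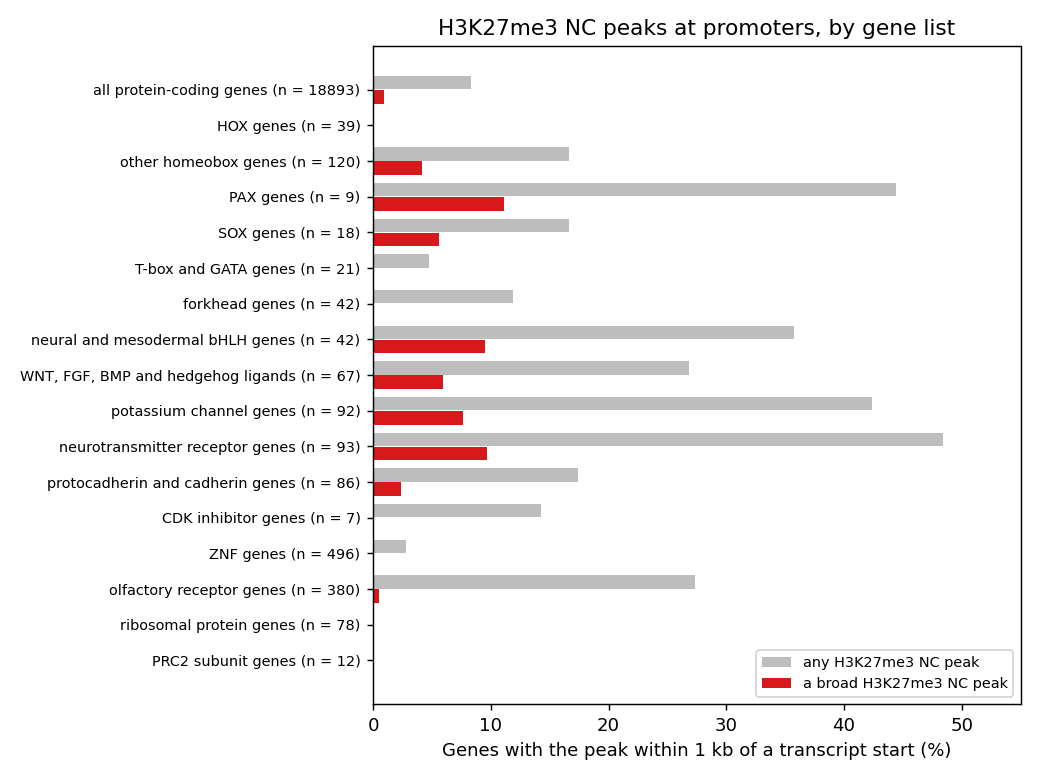
Share of the genes of each list with a broad (red) or any (grey) H3K27me3 NC peak within 1 kb of a protein-coding transcript start, in %, with the number of genes. Broad peaks reach 1 of 9 PAX genes (11.1%), 9.68% of neurotransmitter receptor genes and 9.52% of neural and mesodermal bHLH genes, beside 0.889% of all protein-coding genes, and none of the HOX, zinc finger or ribosomal protein genes.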

How the data were processed

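H3K27me3 and H3K9me3 were profiled by ChIP-seq in HEK293T cells, and samples were grouped by their titles. Per the study's methods and the submitters' processing notes, the authors used Cutadapt 3.3 for adapters and Bowtie2 2.4.2 for alignment (hg19), removed duplicates with GATK, merged the 3 replicates of each group and called narrow peaks on merged ChIP against merged input with MACS2 2.2.7.1. The authors deposited a fold enrichment at each summit, the ratio of ChIP to local input fragments, each plus a pseudocount. The −log10 p-value and −log10 q-value of each peak were also deposited by the authors. The track lines name 1 ASO for LINC00641 and for SETD5-AS1 and a mix for LINC00662.

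From these lists the width, overlap (at least 1 bp) and covered base pairs of each broad peak were computed. The number of fragments and the local input at a summit were solved from the fold enrichment and the p-value, within 0.02 of the −log10 p. This gave whole fragments for at least 99.85% of the peaks in each list and for all broad peaks but 1, whose p-value was too small. The lowest local input of a list was taken as its genome-wide level. Genes were taken from GENCODE 44 lifted to GRCh37. No test between groups was made. Wilson 95% intervals cover counting error only and treat neighbouring peaks as independent.

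The broad peaks and the gene lists were chosen with earlier results of these data known. The regions named are the 5 broad peaks that were widest, strongest by −log10 q, least and most covered, most different between the knockdowns in each direction and most covered by H3K9me3 NC, the 5 largest groups, and up to 4 genes a list at the widest promoter peaks. Not all of them are described, and some items are not reported here. GRIA2 also has the highest fold enrichment, which was noted after its value was seen. Alternatives were other width cuts, merging of peaks, filters on strength and input, windows around the summit and other promoter definitions. The functions were tested on simulated data. Scripts ran in Python 3.11.15 with pandas 2.3.3, numpy 2.4.6, scipy 1.17.1 and matplotlib 3.10.9.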

Additional observations from a re-analysis of the deposited data

How the results depend on the processing

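No paired analysis was possible because each list pools its 3 replicates, and for the same reason no replicate could be left out. The coverage values depend on how peaks are delimited. With broad peaks of at least 2000 bp the median covered shares in LINC00641 and SETD5-AS1 were 75% and 73.8%, with at least 5000 bp 85.9% and 83.8%, and with NC peaks within 1 kb merged first, which gave 6209 broad regions, 49.97% and 51.1%. The shares covered at least 50% were 81.9% and 80.9%, 97% and 95.7%, and 49.9% and 52%. With knockdown peaks of a −log10 q of at least 5 only, the medians were 75.3% and 68.7% and the shares 74.9% and 70.4%, and with gaps of up to 1 kb between knockdown peaks filled, 99.1% and 98.9%, and 94.9% and 95.5%. Within 1500 bp of the summit the medians were 86.4% and 83.4%. The median share of broad LINC00641 and SETD5-AS1 peaks under NC peaks was 83.5% and 83.1% from 2000 bp, 90.7% for SETD5-AS1 from 5000 bp, 64.9% and 62.2% after merging, 83.3% and 83.5% with the −log10 q filter and 100% in both with gaps filled. The overlap with H3K9me3 NC and LINC00662 was 28.4% and 27.7% from 2000 bp, 51.2% and 52.5% from 5000 bp, 11.6% and 10.6% with the −log10 q filter, which left 3.64% and 3.18% of base pairs covered, and 27.6% and 28.4% around the summit. A protein-coding promoter was touched by 9.38% from 2000 bp, 14.4% from 5000 bp, 8.63% after merging and 8.96% with gene starts only, and the number of listed genes at a broad peak, 35 as reported, was 68, 11 and 91 under the first 3 of these. Equal numbers of the strongest peaks, and leaving out broad peaks with an input over 5 times the genome-wide level, moved none of these values beyond its interval or by over 1.5 times. For the covered shares in LINC00641 and SETD5-AS1, neither setting could change much. Equal numbers left 1480 and 1484 of the 1485 broad peaks and the whole knockdown lists, and the input filter left 1459. Of the 90 recomputed values 42 stayed within these limits. Counting peaks as broad from 3000 bp, a summit of 16 to 30 fragments and pooled replicates limit what a single uncovered peak shows.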

Other observations

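Beyond the lists, broad promoter peaks were found at immune receptor genes of chromosome 19, which were picked out after the values had been seen. LILRB1, an inhibitory leukocyte receptor gene, lay under a peak of 10733 bp that was covered 92.3% in LINC00641 and 90.2% in SETD5-AS1. Its neighbours LILRA2 and LILRA1 were covered 100% and 94.2% in LINC00641 and 99.7% and 57.3% in SETD5-AS1, and LILRB2 97.3% and 44.9%. LAIR2 (6619 bp), SIGLEC14 (4952 bp) and SIGLEC6 (4704 bp), further genes of leukocyte receptors, were covered 85.0%, 100% and 94.4% in LINC00641 and 86.9%, 98.7% and 100% in SETD5-AS1. None of these 7 broad peaks had a base pair under H3K9me3 NC, as was so for 64.0% of all broad peaks. Of the broad peaks at protein-coding promoters, 19.8% met an H3K9me3 NC peak. H3K9me3 LINC00662 peaks covered 6.22% of the LILRA1 peak. The local input of the 7 peaks was 1.22 to 2.02 times the genome-wide level.

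Other single genes with a broad promoter peak, also picked after their values were seen, were the estrogen receptor gene ESR1 (5403 bp, covered 74.2% and 67.5%), the insulin-like growth factor gene IGF2 (4172 bp, covered 91.9% and 92.6%) and the neurotrophin gene BDNF (3574 bp, covered 73.8% and 85.5%). The BDNF peak was also covered 24.5% by H3K9me3 NC and 42.0% by LINC00662. The widest promoter peak, 11323 bp at SORCS3, met 6 LINC00641 and 4 SETD5-AS1 peaks, the widest of which spanned 2724 and 3445 bp.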
